A study of Mus musculus with 25 samples.

Results

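The livers compared here came from 9 untreated C57BL/6 mice aged 39 weeks, 5 labelled Ncoa5+/- and 4 labelled wild type, out of 25 liver samples in the study. They were chosen by their labels alone: genotype, age and the absence of treatment. Mice labelled Ncoa5+/- carry 1 targeted copy of Ncoa5, and the labels give neither the deleted part of the gene nor a tissue-specific promoter, nor whether the mice were littermates. All 9 mice ate a standard rodent diet, each liver was frozen at dissection, and total RNA of whole tissue was sequenced for each mouse. The other 16 samples were 8 untreated mice aged 20 weeks, 4 of each genotype, and 8 mice aged 39 weeks given metformin (about 250 mg/kg daily for 31 weeks, begun at an age of 8 weeks), 5 labelled Ncoa5+/- and 3 wild type. Values are FPKM, fragments scaled to transcript length and to library size, as the authors normalized them. All positions are on GRCm38.

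Ncoa5 encodes a nuclear receptor coactivator, a protein that modulates transcription by hormone receptors such as the estrogen receptor, and loss of 1 copy in male mice has been linked to glucose intolerance and liver tumours. p53, a transcription factor switched on by DNA damage and other stress, induces genes that stop the cell cycle, start apoptosis or repair DNA, among them Cdkn1a, whose product p21 is named in the title of the series. NRF2, another stress-activated transcription factor, induces enzymes that conjugate, reduce and export reactive compounds, of which the liver makes large amounts.

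Of the 46052 loci, 11441 had a mean of at least 1 FPKM over the 17 mice aged 39 weeks and were tested with limma on log2(FPKM + 1). A locus passed at a Benjamini-Hochberg adjusted p under 0.05, and each fold change is of the label Ncoa5+/- over wild type. Untreated mice labelled Ncoa5+/- differed from wild type mice at 30 loci (0.262% of those tested), 29 higher (0.253%) and 1 lower (0.00874%). In all 30 the groups did not overlap, which was so at 207 of all loci tested (1.81%), 125 higher (1.09%) and 82 lower (0.717%). The median log2 fold change over all loci tested was -0.02. Before testing, 14 loci listed at 0 throughout 1 group but expressed in another were left out as failed estimates. With these kept at 0, 38 loci passed, 30 higher and 8 lower. The loci that passed held 8 targets of p53, cyclin D1, 3 glutathione S-transferases, a mannose-binding lectin and several transcripts with no known function. Without wild type replicate 2, 18 loci passed, and without wild type replicate 4 also 18. When the 9 untreated mice were fitted without the treated ones, 11 passed, and the 10 of them among the 30 were Bax, Plk2, Ccnd1, Mbl2, Mgat5, Cars, 2410089E03Rik, Gm11974,Gm22457 and the unnamed loci on chromosomes 3 and 17.

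The libraries varied within each genotype. FPKM sums ran from 1106558 to 1200168 in wild type mice and from 991881 to 2089981 in mice labelled Ncoa5+/-, and in Ncoa5+/- replicate 3 the 50 highest loci took 78.3% of the sum, against 54.9% to 60.7% in the other 8 libraries. The smallest FPKM steps of weakly expressed loci gave a relative depth of 0.847 to 1.01 in wild type libraries and 0.946 to 1.30 in the others, set against wild type replicate 1, read from the most frequent ratio, which held for 24.4% to 26.6% of those loci. All 9 livers expressed transcripts of the Y chromosome, with Ddx3y between 11.9 and 19.7 FPKM. The labelled tissue was checked on hepatocyte markers: their summed level was 4563 to 7503 FPKM in every library, while Alb and 3 Serpina1 genes were listed at 0 in all 9 and not analysed. Another 3 markers, Ttr, Apoa1 and Ahsg, were left out of the sum as failed estimates, and 7 were tested. These 3 were listed at 0 in all 5 mice labelled Ncoa5+/- and at 3331 to 9232 FPKM in wild type mice. Of 81 markers of 10 cell types tested, none passed, 7 had an unadjusted limma p under 0.05, and none had groups without overlap. Over all loci tested these shares were 0.262%, 5.62% and 1.81%, and cell composition was not tested. Immediate early, heat shock and ER chaperone genes were highest in wild type replicate 2, with summed levels of 1382, 4718 and 6688 FPKM, against at most 301, 2442 and 5153 FPKM in the other 8 libraries. Markers of T, NK and B cells summed to 978 FPKM in Ncoa5+/- replicate 1, led by immunoglobulin transcripts, and to 49.5 to 128 FPKM in the other 8.

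**Figure D1:**
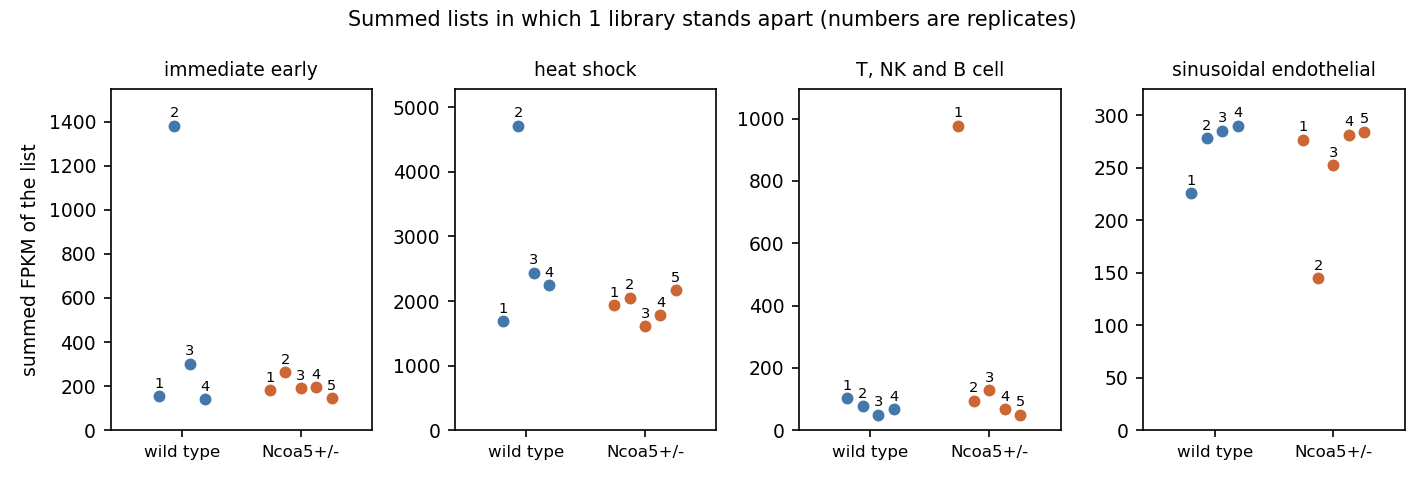
Summed FPKM (linear axes from 0) of 4 gene lists in each untreated mouse aged 39 weeks, with wild type in blue, mice labelled Ncoa5+/- in orange and the replicate number above each point. Wild type replicate 2 stands apart at 1382 and 4718 FPKM of immediate early and heat shock genes, Ncoa5+/- replicate 1 at 978 FPKM of T, NK and B cell markers, and Ncoa5+/- replicate 2 is lowest at 145 FPKM of sinusoidal endothelial markers.

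Ncoa5 itself, the targeted gene (chromosome 2, 165000357 to 165034867), did not separate the labels. The 5 mice labelled Ncoa5+/- had 4.42, 3.58, 2.63, 3.67 and 4.31 FPKM, and the 4 wild type mice had 4.28, 4.68, 4.12 and 3.60 FPKM. The ranges overlapped, and the means of 3.72 ± 0.714 and 4.17 ± 0.445 FPKM (SD, n = 5 and 4) gave a log2 fold change of -0.14 and a two-sided exact permutation p of 0.349. Every genotype direction below therefore rests on the labels. None of the 252 loci tested within 20 Mb of Ncoa5 on chromosome 2 passed, and 18 of them had an unadjusted p under 0.05, against 5.62% of all loci tested. The list of nuclear receptor coactivators and partners, which holds Ncoa1, Ncoa2, Ncoa3, Ncoa4 and Ncoa6 beside Ncoa5, counted 10 tested genes with a median log2 fold change of -0.05 and no member that passed.

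Targets of p53 were the gene group with the most loci that passed. Of 41 targets listed, 31 reached the expression filter, and 8 of these (25.8%) passed, all higher, beside 0.253% of all loci. Another 4 lay higher without overlap but did not pass, 22 of 31 had a positive fold change against 44.5% of all loci tested, and the median log2 fold change was 0.19. The list was chosen with earlier results of these data known, so its share is a description and was not tested. In 3 of the 31 the wild type mean was below 1 FPKM, so the filter kept them through other groups. Phlda3 and Eda2r, which are among the 8 that passed, were 2 of these 3. With no filter 6 of the 41 passed. Bulk tissue cannot tell more cells that express a gene from more RNA per cell.

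Cdkn1a, encoding the cyclin-dependent kinase inhibitor p21 (chromosome 17, 29090976 to 29100727), rose most among them. Livers labelled Ncoa5+/- held 117, 17.7, 14.96, 18.3 and 33.5 FPKM, and wild type livers held 1.28, 2.68, 1.71 and 1.56 FPKM. Every labelled mouse lay above every wild type mouse, and replicate 1 stood at 3.496 to 7.83 times the other 4. The log2 fold change was 3.43 ± 0.45 (SE, adjusted p = 0.0017), the two-sided exact permutation p was 0.0159, the smallest the design allows, and the ratio of means was 22.3, or 11.7 without replicate 1. Fitted on the 9 untreated mice alone, Cdkn1a did not pass (limma adjusted p = 0.0764).

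Phlda3, whose product restrains Akt signalling (chromosome 1, 135766119 to 135769136), had 45.1, 7.67, 8.23, 9.97 and 14.6 FPKM against 1.32, 0.865, 0.566 and 0.980 FPKM. The order of the mice was nearly that of Cdkn1a, with replicates 1 and 5 on top. Its log2 fold change was 2.92 ± 0.39 (adjusted p = 0.0017), and its ratio of means of 18.3 became 10.8 without replicate 1. Eda2r, a receptor of the tumour necrosis factor family (chromosome X, 97333840 to 97377216), was at 6.24, 1.62, 2.26, 2.07 and 2.36 FPKM against 0.260, 0.452, 0.290 and 0.305 FPKM. Wild type livers held it below 0.5 FPKM, and the log2 fold change was 1.46 ± 0.22 (adjusted p = 0.00536), with a ratio of means of 8.89. On the untreated mice alone neither gene passed (limma adjusted p = 0.0762 for Phlda3 and 0.151 for Eda2r), and raising the pseudocount to 5 left Eda2r short of the threshold (adjusted p = 0.0821).

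Bax, which permeabilizes the outer mitochondrial membrane in apoptosis (chromosome 7, 45461697 to 45466898), was far more even among the mice. It stood at 80.6, 69.1, 66.3, 73.8 and 60.3 FPKM in mice labelled Ncoa5+/- and 34.6, 35.5, 40.6 and 37.3 FPKM in wild type mice. The groups lay well apart and the highest labelled mouse was only 1.34 times the lowest, and a log2 fold change of 0.90 ± 0.11 passed at the smallest adjusted p among the p53 targets (0.000768). No other of the 18 tested members of the Bcl2 and caspase list passed, and the median log2 fold change over the 18 was -0.05. Casp8, an initiator caspase, had a log2 fold change of -0.20, with overlapping groups.

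Plk2, a stress-responsive kinase, had 13.3, 8.49, 10.2, 8.83 and 12.2 FPKM against 5.03, 3.25, 3.76 and 3.60 FPKM. Zmat3, an RNA-binding regulator of splicing, had 4.89, 2.17, 2.83, 3.02 and 3.52 FPKM against 1.20, 1.49, 1.54 and 1.26 FPKM. Ccng1, encoding cyclin G1, had 45.5, 15.4, 18.5, 21.4 and 28.0 FPKM against 10.5, 10.8, 9.91 and 11.3 FPKM. All 3 rose, by log2 fold changes of 1.24, 0.82 and 1.11 (adjusted p = 0.00536, 0.0333 and 0.0464), but Ccng1 passed in 3 and Zmat3 in 2 of the 9 fits that left out 1 mouse. The eighth was Ephx1, the microsomal epoxide hydrolase, which is also on the NRF2 list. Its locus, shared with the pseudogene Gm36961, had 1074, 732, 800.0, 956 and 655 FPKM against 502, 434, 506 and 389.5 FPKM (log2 fold change 0.87, adjusted p = 0.0394), and passed in 1 of the 9.

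The 4 targets that lay higher without overlap and did not pass were Aen, Rps27l, Polk and Mdm2. Mdm2, the ubiquitin ligase that degrades p53, had 22.1, 14.3, 14.96, 13.3 and 13.6 FPKM against 8.33, 12.4, 10.7 and 7.52 FPKM (log2 fold change 0.64, adjusted p = 0.215). Aen, an apoptosis-enhancing nuclease, had 33.3, 14.4, 17.6, 19.6 and 22.7 FPKM against 11.2, 10.1, 9.49 and 10.8 FPKM (log2 fold change 0.93, adjusted p = 0.0891). In Aen and Mdm2 the lead of replicate 1 widened the spread. Polk, a DNA polymerase that copies past lesions, had a log2 fold change of 0.56 (adjusted p = 0.116), and Rps27l, a ribosomal protein relative, of 0.40 (adjusted p = 0.0874).

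The remaining 19 tested targets overlapped between genotypes. Wild type replicate 2 had the highest level of the early growth arrest genes Btg2 and Gadd45a, with 2.27, 166, 3.32 and 3.43 FPKM of Btg2 and 16.1, 78.3, 9.61 and 5.95 FPKM of Gadd45a in the 4 wild type mice. The mice labelled Ncoa5+/- had 6.88, 10.2, 3.84, 4.34 and 10.1 FPKM of Btg2 and 17.6, 15.96, 10.2, 11.7 and 8.45 FPKM of Gadd45a. Replicate 2 alone set these wild type values apart, and the same library was highest in immediate early genes. The log2 fold changes of -0.41 for Btg2 and -0.41 for Gadd45a, neither of which passed, became 0.94 and 0.31 without it. Fas, Xpc and Ddb2, a death receptor and a pair of nucleotide excision repair genes, had log2 fold changes of 0.10, 0.00 and 0.03. Without wild type replicate 2 the median over the 31 targets was 0.31 and 5 passed. Without Ncoa5+/- replicate 1, 7 passed. In the fit of the 9 untreated mice alone, 2 passed, Bax and Plk2.

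Trp53, encoding p53 itself, had 10.1, 13.4, 10.96, 9.90 and 13.1 FPKM in mice labelled Ncoa5+/- and 10.5, 10.6, 10.5 and 11.7 FPKM in wild type mice. These ranges overlapped, with a log2 fold change of 0.07 ± 0.09 (adjusted p = 0.946). None of the 13 tested regulators of p53, Mdm2 among them, passed, and their median log2 fold change was -0.03.

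**Figure D2:**
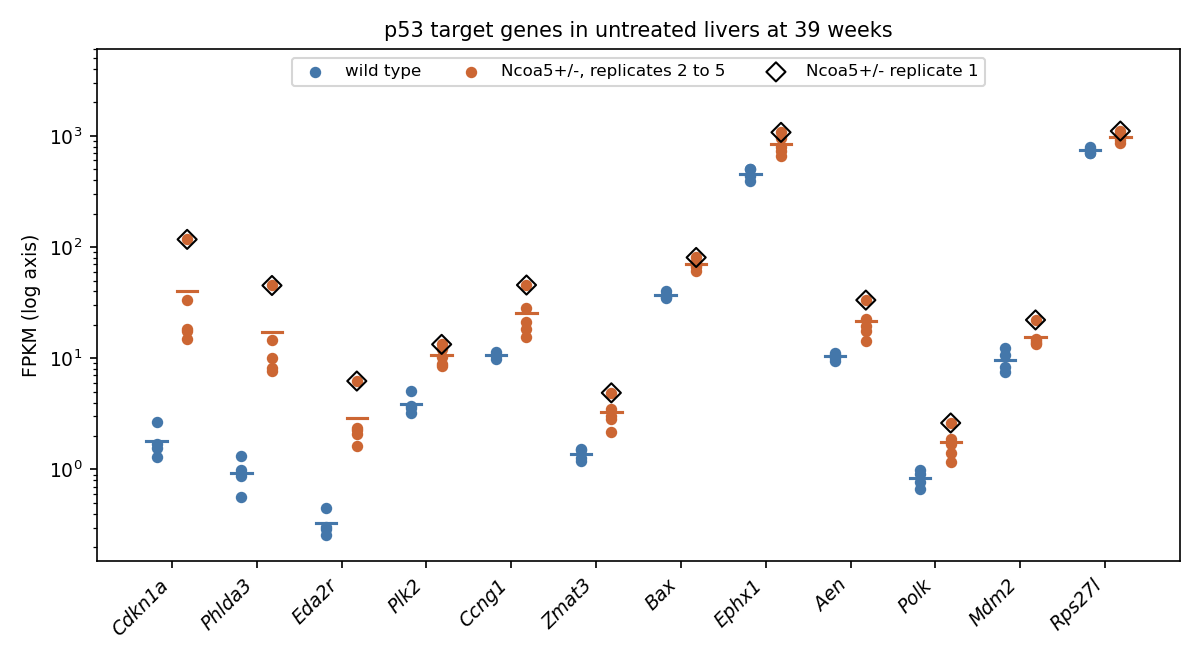
FPKM (log axis) of the 12 p53 target genes that lay higher without overlap in untreated mice aged 39 weeks. Points are mice, wild type in blue and labelled Ncoa5+/- in orange, bars are group means, and the open diamond marks Ncoa5+/- replicate 1, which is the highest mouse in all 12, as at 117 FPKM of Cdkn1a.

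The 5 mice labelled Ncoa5+/- did not share 1 level of these p53 targets. Replicate 1 was the highest of the 5 for all 12 targets without overlap, beside 51 of the 125 loci without overlap on the higher side (40.8%) and 17.1% of all loci tested. Over the 29 loci that rose, replicate 1 was highest in 19, replicates 2, 3 and 5 in 3 each and replicate 4 in 1. The same replicate 1 carried the high immunoglobulin level given above, and the part of that in its other values was not tested. Without it 24 loci passed, all of them among the 30.

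Bases before the start of 3 of these genes are shown because they hold a match to the p53 response element, a pair of 10-base half-sites with the core CNNG in each, at most 1 base between them and at most 2 mismatches in all, on either strand. RefSeq promoters of GRCm38.p6, 300 bases long, were found for 23 of the genes that passed, and 3 of the 23 (13.04%) held such a match, as did 0.81% of 27025 genes with a promoter in the same table. Capitals mark the match, with 20 bases on each side, 5′ to 3′ on the strand of the gene. The stretches are chr17:29090908-29090967 for Cdkn1a, plus strand, chr11:40755442-40755501 for Ccng1, minus strand, and chr7:45467059-45467119 for Bax, minus strand.
Cdkn1a: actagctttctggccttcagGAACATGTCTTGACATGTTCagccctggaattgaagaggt
Ccng1: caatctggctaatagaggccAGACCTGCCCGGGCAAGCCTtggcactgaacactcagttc
Bax: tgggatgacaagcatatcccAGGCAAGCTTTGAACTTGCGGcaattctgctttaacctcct
The Cdkn1a match lies 51 bases before the more upstream of its start sites and has 1 mismatch, that of Ccng1 lies 195 bases before its start with 1 mismatch, and that of Bax 201 bases before with 2. The other 20 genes had no match in this window, which says nothing of sites elsewhere. TGACNNNGC, the core of the antioxidant response element that NRF2 binds, was found on either strand in 5 of the 23 (21.74%) and in 13.99% of the 27025 genes.

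Genes of the G1 phase of the cell cycle split. Ccnd1, the cyclin that drives entry into S phase together with Cdk4 and Cdk6 (chromosome 7, 144929931 to 144939925), had 16.2, 24.7, 20.98, 17.01 and 26.2 FPKM against 6.88, 8.61, 7.58 and 8.16 FPKM. All labelled mice lay above all wild type mice, and here replicate 1, the highest for Cdkn1a, was the lowest of the 5. The log2 fold change was 1.30 ± 0.20 (adjusted p = 0.00655), and Ccnd1 passed without any 1 mouse. Of 18 tested G1 cyclins, kinases and inhibitors, 2 passed (11.1%), Cdkn1a and Ccnd1, both higher, beside 0.253% of all loci. Cdkn1a is also counted among the p53 targets. A positive fold change was seen in 9 of the 18, beside 44.5% of all loci tested, and the median was 0.01. None of 12 tested proliferation genes passed. Cdk1, the mitotic kinase, had 1.22, 2.09, 1.56, 1.24 and 1.71 FPKM against 0.981, 0.658, 1.27 and 0.410 FPKM, overlapping, with a log2 fold change of 0.50 (adjusted p = 0.641).

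Enzymes that conjugate xenobiotics with glutathione rose in part. Gsta1, an alpha class transferase (chromosome 9, 78230656 to 78242684), had 100.2, 72.7, 54.0, 66.5 and 52.2 FPKM against 24.0, 16.8, 34.5 and 15.6 FPKM (log2 fold change 1.59 ± 0.26, adjusted p = 0.0117). Gstm1, a mu class member, had 2138, 2671, 2205, 2617 and 2008 FPKM against 1512, 1477, 1672 and 1399 FPKM (0.61 ± 0.12, adjusted p = 0.0361). Gstm3 had 100.05, 80.3, 81.3, 56.6 and 118 FPKM against 46.1, 39.8, 51.1 and 46.2 FPKM (0.88 ± 0.17, adjusted p = 0.0363). Groups did not overlap in any of the 3. Gsta1 was highest in replicate 1, as the p53 targets without overlap were, but Gstm1 was highest in replicate 2 and Gstm3 in replicate 5. Of 21 tested transferases these 3 (14.3%) passed, beside 0.253% of all loci, 11 were positive, beside 44.5%, and the median log2 fold change was 0.02. Gstm4 had a log2 fold change of 0.32 (adjusted p = 0.313) and Gstk1, the peroxisomal and mitochondrial form, one of -0.39 (adjusted p = 0.38). Gm10639, a coding gene on the same chromosome as Gsta1 (from 78289923 to 78305525), rose as well, with 16.97, 13.2, 8.40, 9.55 and 7.18 FPKM against 4.78, 2.74, 4.53 and 2.70 FPKM (log2 fold change 1.33, adjusted p = 0.0146). Transferase genes are similar in sequence and can share reads, so their single values are uncertain. Gstm1 and Gstm3 each passed in 1 of the 9 fits without 1 mouse, and Gsta1 and Gm10639 in 7, not without wild type replicate 2 or 4. No transferase passed without wild type replicate 2, without wild type replicate 4 or in the fit of the untreated mice alone.

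Other NRF2 targets leaned the same way. Of 22 tested, 19 were positive, beside 44.5% of all loci, the median log2 fold change was 0.18, and only Ephx1 passed. Abcc4, an export pump for organic anions, had 5.01, 2.09, 2.05, 2.95 and 1.69 FPKM against 1.02, 0.874, 0.967 and 0.778 FPKM (log2 fold change 0.92, adjusted p = 0.0891). Cbr3, a carbonyl reductase, had 7.199, 2.35, 2.45, 5.44 and 2.61 FPKM against 1.23, 0.773, 1.13 and 0.760 FPKM (1.25, adjusted p = 0.272). Nqo1, the quinone reductase, had 9.54, 5.67, 4.64, 8.53 and 7.32 FPKM against 4.55, 2.69, 4.52 and 3.94 FPKM (0.71, adjusted p = 0.33). In these 3 the groups did not overlap, the tests were not passed, and replicate 1 was the highest mouse. With Ephx1, 4 of the 22 lay higher without overlap, beside 1.09% of all loci tested. In 2 of the 22, Abcc4 and Cbr3, the wild type mean was below 1 FPKM. The filter kept these 2 through other groups, and with no filter none of the 23 listed passed. Hmox1, heme oxygenase, and Txnrd1, thioredoxin reductase, had log2 fold changes of -0.17 and 0.08.

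The locus with the smallest p of all was 2410089E03Rik, named Cplane1 in current annotation, a gene of primary cilium assembly (chromosome 15, 8169073 to 8271158). Its level was 168, 71.1, 44.8, 24.5 and 60.7 FPKM in mice labelled Ncoa5+/- and 1.82, 2.44, 2.25 and 2.28 FPKM in wild type mice. Every labelled mouse was at least 10.02 times the highest wild type mouse, with a log2 fold change of 4.27 ± 0.39 (adjusted p = 0.000106) and a ratio of means of 33.5, or 22.9 without replicate 1. The locus also spans a small nuclear RNA gene, Gm24144, and which transcript carried the rise cannot be read from a value per locus.

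Noncoding or unnamed loci were 6 of the 30. Gm11974,Gm22457, which lies over the small nucleolar RNA host gene Snhg15 and Snora9 (chromosome 11, 6525591 to 6528801), was even across the mice, with 17.1, 14.5, 13.9, 18.1 and 15.8 FPKM against 4.52, 3.94, 5.13 and 5.01 FPKM. Its log2 fold change was 1.58 ± 0.16 (adjusted p = 0.000207). WI1-49P9.2, the long noncoding RNA Gm43549 of current annotation (chromosome 3, 55578105 to 55582730), had 84.3, 36.2, 47.2, 62.2 and 59.6 FPKM against 17.05, 8.20, 24.1 and 8.03 FPKM (2.03 ± 0.39, adjusted p = 0.0407). Gm13657, another noncoding transcript, had 3.66, 2.34, 2.26, 2.09 and 2.40 FPKM against 1.28, 0.497, 0.585 and 0.679 FPKM (1.02, adjusted p = 0.00536). The filter kept Gm13657 through mice labelled Ncoa5+/-, as its wild type means were 0.761 FPKM untreated and 0.867 FPKM with metformin. The groups of all 3 lay apart, but WI1-49P9.2 passed in only 2 of the 9 fits without 1 mouse, those without wild type replicate 3 and without Ncoa5+/- replicate 2.

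Another 3 loci carry no gene name in the files. On chromosome 17, between 21474540 and 21478700 with no annotated gene, levels were 5.43, 3.89, 6.11, 4.16 and 4.17 FPKM against 1.30, 1.16, 1.53 and 1.32 FPKM (log2 fold change 1.29, adjusted p = 0.000207). On chromosome 12, from 27946219 to 27987582 over the noncoding RNA gene Gm45941, they were 27.0, 10.9, 5.34, 11.6 and 8.69 FPKM against 1.77, 1.18, 0.915 and 0.342 FPKM (2.61, adjusted p = 0.0017). On chromosome 3, from 100785726 to 100786586, where the nearest annotated gene Vtcn1 is 38873 bases away, they were 6.64, 8.68, 9.51, 5.17 and 8.35 FPKM against 0.770, 2.02, 2.01 and 1.125 FPKM (1.82, adjusted p = 0.0017). All 3 passed in each of the 9 fits without 1 mouse.

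Mbl2, a mannose-binding lectin that the liver secretes to start the lectin pathway of complement (chromosome 19, 30232942 to 30239687), was the abundant secreted product that rose. It had 1135, 756, 546.4, 824 and 707 FPKM against 346, 283, 310.2 and 307 FPKM. The lowest labelled mouse was 1.58 times the highest wild type mouse, and the log2 fold change was 1.31 ± 0.18 (adjusted p = 0.00237). None of the other 38 tested complement, coagulation and collectin genes passed, and the median over all 39 was 0.00. C3, another member, was left out as a failed estimate. It was listed at 0 in all 5 untreated mice labelled Ncoa5+/- and at 1466 to 1941 FPKM in wild type mice. With failed estimates kept at 0, 2 of 40 members passed.

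Several enzymes and membrane proteins completed the list. Mgat5, which branches N-glycans, had 4.15, 3.23, 3.69, 3.56 and 4.23 FPKM against 1.55, 1.70, 1.505 and 2.05 FPKM (log2 fold change 0.82, adjusted p = 0.00076). Cars, the cysteinyl-tRNA synthetase, had 20.4, 20.997, 17.8, 20.0 and 18.1 FPKM against 11.6, 13.6, 11.9 and 10.02 FPKM (0.68, adjusted p = 0.000768). Tmem43, an inner nuclear membrane protein, had 11.9, 6.74, 9.37, 8.64 and 9.19 FPKM against 4.30, 4.24, 4.84 and 4.37 FPKM (0.89, adjusted p = 0.0017). In Mgat5 and Cars the 5 labelled mice lay within 1.31 and 1.18 times of each other, in contrast to the wide spread of Cdkn1a.

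Atp8b5, a phospholipid flippase gene barely expressed in wild type livers, had 8.21, 1.61, 1.75, 2.49 and 3.16 FPKM against 0.413, 0.119, 0.1497 and 0.234 FPKM (log2 fold change 1.69, adjusted p = 0.0128). Its wild type means were 0.229 FPKM untreated and 0.215 FPKM with metformin, so the filter kept it through mice labelled Ncoa5+/-. Htatip2, an oxidoreductase gene, had 54.7, 58.9, 59.1, 57.3 and 44.5 FPKM against 36.5, 32.8, 39.1 and 33.6 FPKM (0.61, adjusted p = 0.0333). Asap3, an activator of the GTPase activity of Arf proteins, had 3.19, 3.77, 3.07, 3.18 and 2.92 FPKM against 2.0002, 1.79, 2.16 and 2.33 FPKM (0.46, adjusted p = 0.0464) and passed in none of the 9 fits without 1 mouse. Htatip2 passed in 2 of them, without wild type replicate 3 and without Ncoa5+/- replicate 5, and Atp8b5 in 6, not without wild type replicate 2, 3 or 4. Atp8b5 followed the p53 targets in its lead of replicate 1, the other pair did not.

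Endog, a mitochondrial nuclease (30171493 to 30174069), and D2Wsu81e, now named Spout1, are annotated on opposite strands within the same locus of chromosome 2 (30171473 to 30178459). The part of that locus that D2Wsu81e covers is not given here. Endog had 108, 91.7, 62.9, 77.9 and 85.4 FPKM against 44.1, 47.3, 49.3 and 52.9 FPKM (0.78, adjusted p = 0.0129). D2Wsu81e had 59.4, 49.0, 39.4, 43.1 and 54.6 FPKM against 25.4, 27.0, 27.3 and 29.9 FPKM (0.81, adjusted p = 0.00837). Both rose by similar amounts with the mice in a similar order. Strand use in the authors' counting is not stated, so whether the pair shared reads cannot be told. Endog did not pass without wild type replicate 1 or without wild type replicate 2.

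**Figure D3:**
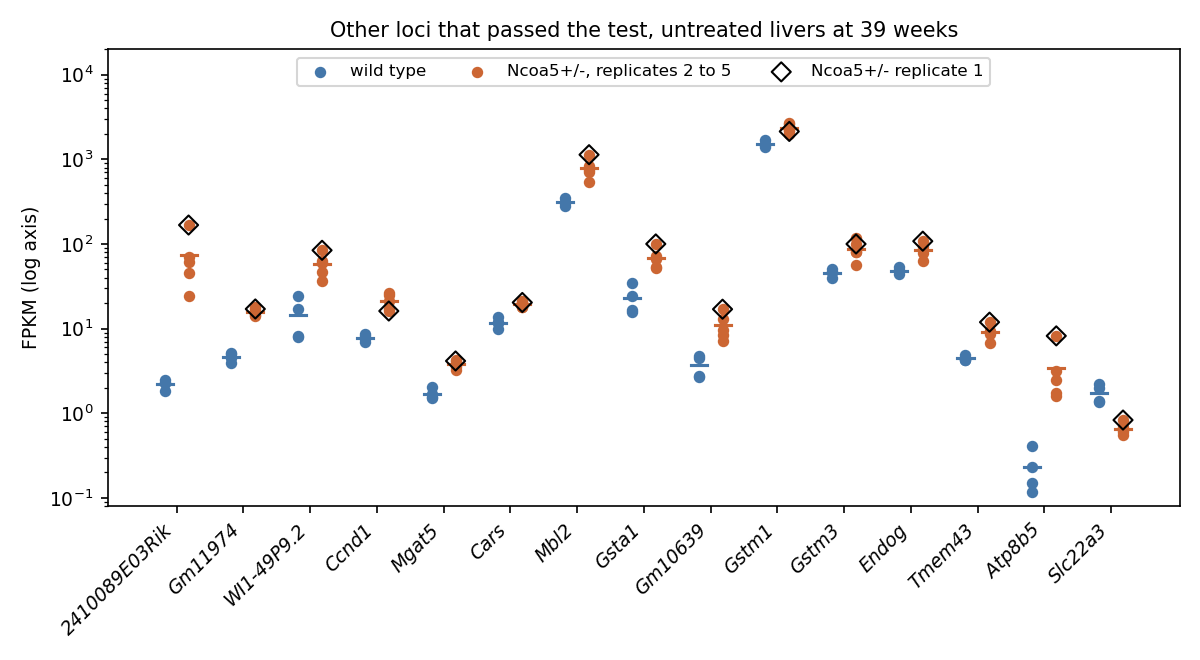
FPKM (log axis) of 15 other loci that passed the test in untreated mice aged 39 weeks, 14 higher and Slc22a3 lower. Points are mice, wild type in blue and labelled Ncoa5+/- in orange, bars are group means, and the open diamond marks Ncoa5+/- replicate 1. Gm11974, Mgat5 and Cars show tight groups, while 2410089E03Rik and Atp8b5 spread widely among the labelled mice.

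Slc22a3, an organic cation transporter, was the only locus that fell. It had 0.832, 0.597, 0.546, 0.629 and 0.680 FPKM against 2.24, 1.37, 1.40 and 1.998 FPKM (log2 fold change -0.72 ± 0.13, adjusted p = 0.0333), with no overlap but a low level in both genotypes, and it passed in 3 of the 9 fits without 1 mouse. Means in mice labelled Ncoa5+/- were 0.657 FPKM untreated and 0.627 FPKM with metformin, so the filter kept the locus through wild type mice. Slc22a3 passed in 7 of the 12 other settings that tested it, and not with the filter removed. It is counted here among pericentral hepatocyte genes, those expressed around the central vein of the lobule. Of 23 such genes tested, 15 were lower and 8 higher, where 44.5% of all loci tested were positive. Slc22a3 passed, and another 5 were lower at an unadjusted p under 0.05, beside 2.81% of all loci tested. Among the 8 higher were Axin2, Sp5 and Lgr5, with log2 fold changes of 0.30, 0.23 and 0.08, none of which passed. Slc22a3 was also the 1 member that passed of 13 tested organic cation and drug transporters (median -0.05). Glul, the glutamine synthetase of the innermost layer, had 272, 200.3, 439, 350.4 and 255 FPKM against 432, 423, 422 and 347 FPKM (-0.47, adjusted p = 0.659). Oat, ornithine aminotransferase, had 266, 362, 275, 228 and 356 FPKM against 363, 384, 453 and 452 FPKM (-0.49, adjusted p = 0.661). Glul overlapped between genotypes and Oat did not, and the median of the list was -0.08. None of 14 tested periportal genes passed (median 0.08).

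Among loci just short of the threshold some were lower. Acsm3, a medium-chain acyl-CoA synthetase, had 30.3, 23.7, 25.9, 30.8 and 26.9 FPKM against 34.0, 41.0, 35.5 and 35.9 FPKM (-0.40, adjusted p = 0.0856). Hsd17b10, a mitochondrial dehydrogenase, had 189.6, 202, 197, 219.6 and 171 FPKM against 273, 240.4, 269 and 247 FPKM (-0.39, adjusted p = 0.106). Prodh, proline dehydrogenase, had 95.6, 69.9, 80.1, 76.7 and 83.8 FPKM against 155, 97.3, 128 and 107 FPKM (-0.56, adjusted p = 0.119). Each had groups without overlap and none passed. On the higher side Plxna2, a semaphorin receptor, had a log2 fold change of 0.75 (adjusted p = 0.0748) and Bst2, an interferon-induced membrane protein, of 0.42 (adjusted p = 0.0891).

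Cyp2a4, a steroid hydroxylase gene with higher expression in female than male mouse liver, had one of the largest fold changes that did not pass. It had 29.8, 60.4, 5.74, 49.1 and 15.02 FPKM against 3.16, 1.56, 1.68 and 3.34 FPKM, without overlap, but the labelled mice spanned a 10.5-fold range (log2 fold change 2.92 ± 0.72, adjusted p = 0.206). Of 42 tested genes of cytochrome P450 families 1 to 4 none passed, and 26 were lower. Gdf15, a stress-induced secreted factor, had 13.8, 7.30, 10.96, 6.16 and 10.3 FPKM against 2.60, 2.21, 5.79 and 3.26 FPKM (1.27, adjusted p = 0.38), again without overlap. None of the 12 tested senescence-associated secreted genes, Gdf15 among them, passed.

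Mitochondrially encoded mRNAs, the respiratory chain subunits made within mitochondria, tended lower. Of 13 listed 8 were tested, and of these 7 were lower, 3 without overlap, and none passed. Over all loci tested 44.5% were positive and 0.717% were lower without overlap. mt-Cytb, the cytochrome b of complex III, had 3261, 7046, 6078, 4009 and 4403 FPKM against 9444, 8287, 7548 and 8968 FPKM (-0.84, adjusted p = 0.257). mt-Nd5, of complex I, had 1342, 1407, 1486, 1416 and 1395 FPKM against 2006, 1818, 1532 and 1682 FPKM (-0.31, adjusted p = 0.796). Replicate 1 was lowest of all in both, and the median over the list was -0.28, between -0.36 and -0.24 when any 1 mouse was left out. The 57 tested nuclear-encoded subunits had a median of -0.01. Of 77 tested cytosolic ribosomal protein genes 73 were positive with a median of 0.10, and none passed.

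Immediate early, cytosolic heat shock and ER chaperone genes had medians of -0.39, -0.41 and -0.25, with no member that passed. Without wild type replicate 2, the library highest in all 3 lists, these became 0.01, -0.12 and -0.05. Macrophage markers had a median of -0.32 over 15 genes and T, NK and B cell markers one of 0.49 over 7, both with no member that passed. Of the 49 lists, 41 held no locus that passed.

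**Figure D4:**
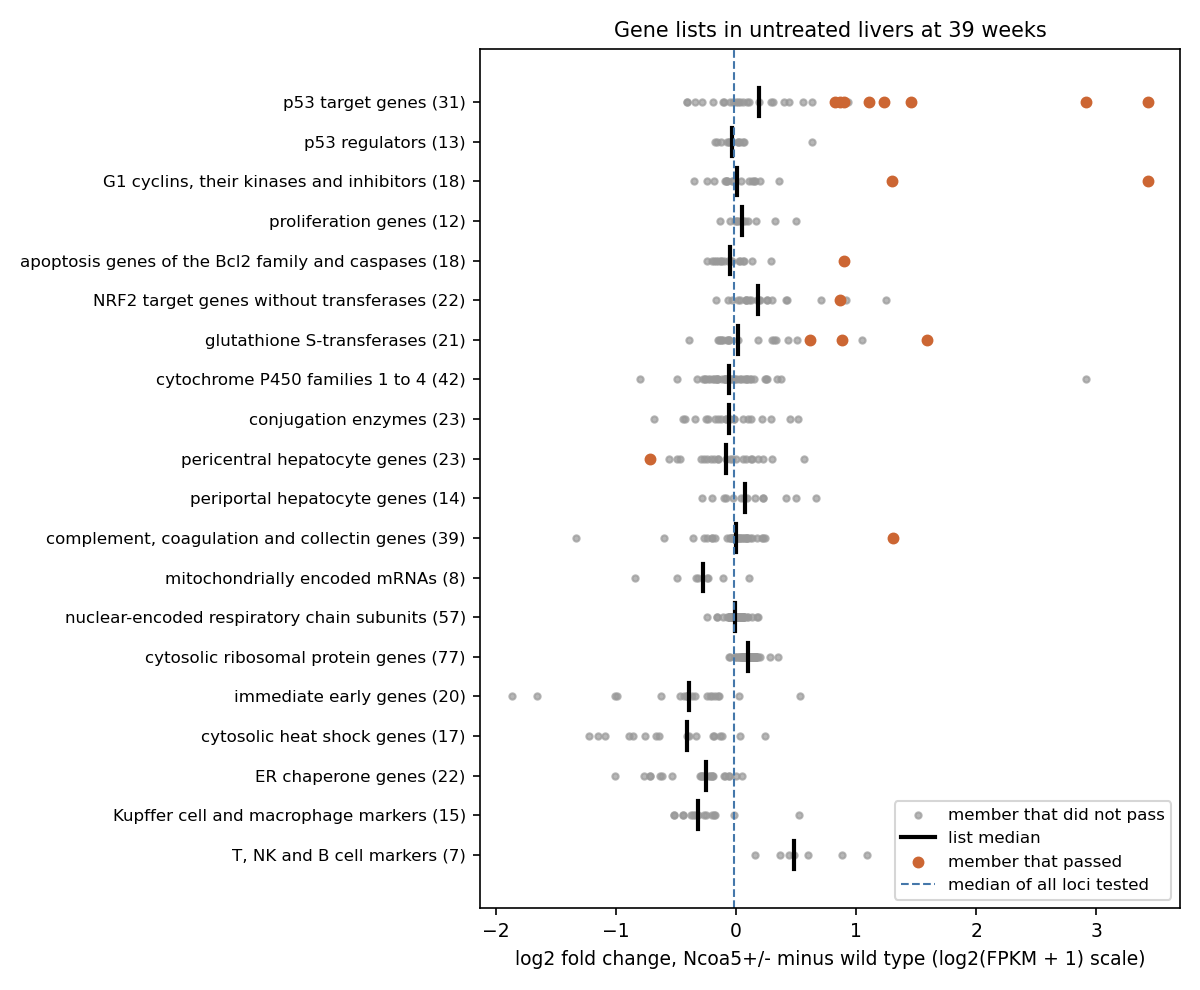
Log2 fold change (Ncoa5+/- minus wild type, on the log2(FPKM + 1) scale) of each tested member of 20 gene lists, with the number tested in brackets. Orange points passed, grey points did not, black bars are list medians and the dashed line is the median of all loci tested, -0.02. Cdkn1a, at 3.43, is a member of both the p53 target list and the list of G1 cyclins, their kinases and inhibitors. The median of the p53 target list stands at 0.19, beside 0.18 for NRF2 targets and 0.49 for T, NK and B cell markers.

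Whether the 30 loci differed in the same direction in other mice was read in 2 sets of other mice. The treated mice were in the same limma fit as the untreated ones, so they added to the filter and to the estimate of the spread that both contrasts used, and the calls in the 2 contrasts are not independent. The mice aged 20 weeks were fitted apart. In metformin-treated mice aged 39 weeks all 30 kept their direction, where 47.7% of all loci tested were positive, and 15 passed, against 18 of all loci tested (0.157%). Cdkn1a had 18.2 ± 6.47 FPKM in 5 treated mice labelled Ncoa5+/- and 0.804 ± 0.218 FPKM in 3 treated wild type mice (SD; log2 fold change 3.35, adjusted p = 0.00886). Bax (0.75, adjusted p = 0.00975), Ccnd1 (1.43, adjusted p = 0.00975), Gsta1 (1.82, adjusted p = 0.0105) and 2410089E03Rik (3.62, adjusted p = 0.00138) passed as well. Of the 31 p53 targets 23 were positive in treated mice and 5 passed.

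The difference between the untreated and the treated genotype effect was tested as an interaction. No locus passed (smallest adjusted p = 0.991), and 319 of 11441 loci (2.79%) had an unadjusted p under 0.05. Among the 30, that was so for Cars and Asap3. For Cars the log2 fold change was 0.68 in untreated and 0.26 in treated mice, and for Asap3 0.46 and 0.03. Both interactions had a limma adjusted p of 0.991.

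At 20 weeks 27 of the 30 loci could be matched by name, and 21 were expressed enough to be tested. Of these 19 had the direction seen at 39 weeks, where 54.4% of all loci tested at that age were positive, and 6, all higher, had an unadjusted p under 0.05, beside 7.48% of all loci in either direction and 5.05% higher. No locus passed at 20 weeks (smallest adjusted p = 0.603). Levels were 5.16 ± 4.78 against 0.667 ± 0.277 FPKM for Cdkn1a (SD, n = 4 and 4), with a log2 fold change of 1.47, and Bax had one of 0.50. Gm11974,Gm22457 and Asap3 had the opposite sign, at -0.26 and -0.13. The cohorts were sequenced and normalized apart, so levels are not compared between ages.

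**Figure D5:**
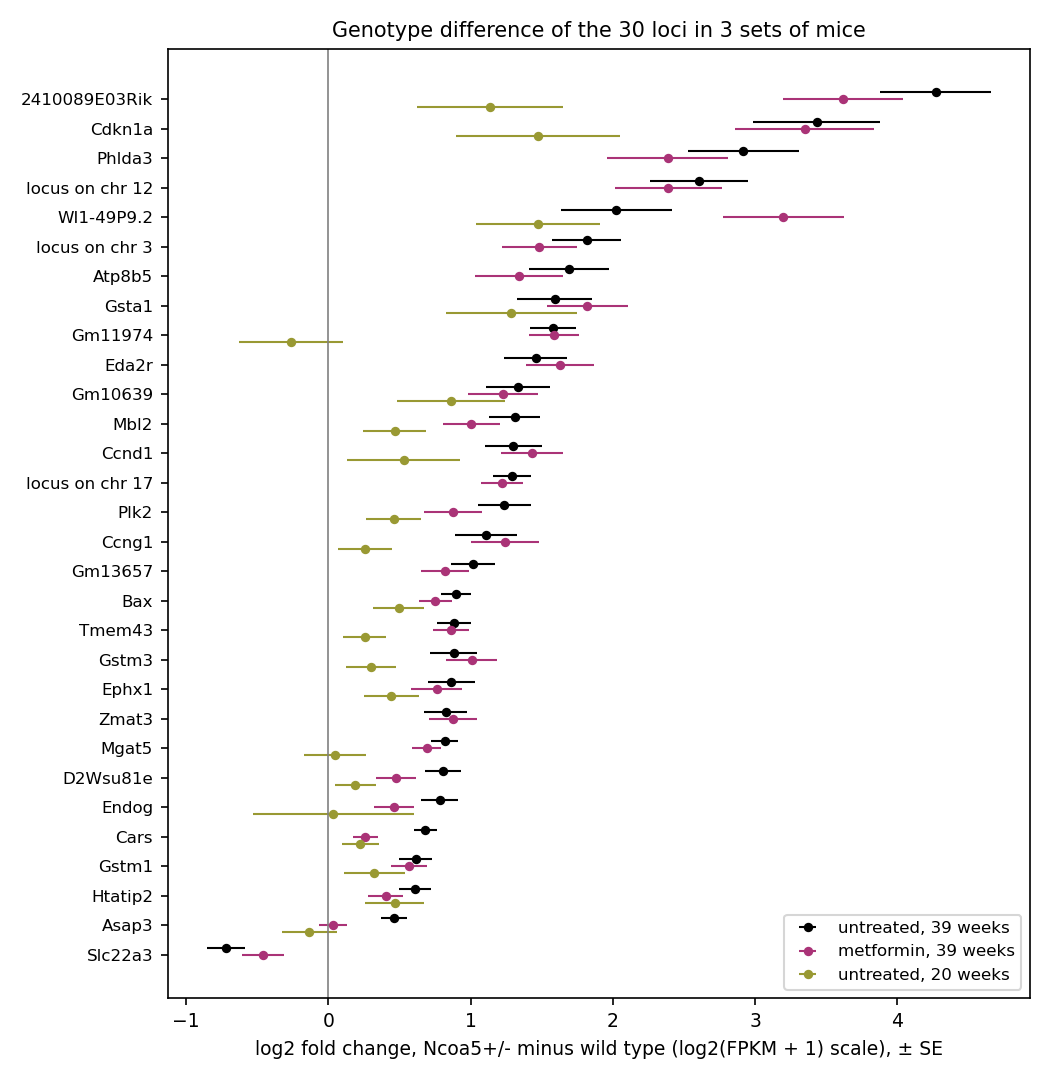
Log2 fold change ± SE (Ncoa5+/- minus wild type, on the log2(FPKM + 1) scale) of the 30 loci in untreated mice at 39 weeks (black), metformin-treated mice at 39 weeks (purple) and untreated mice at 20 weeks (olive, where tested). All 30 purple points lie on the side of the black ones, and 19 of the 21 olive points do, most of them closer to 0.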

How the data were processed

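Liver RNA of 9 untreated mice aged 39 weeks was compared by label. Per the submitters' processing notes, reads were trimmed with Trimmomatic 0.33 and processed with TopHat2, Cufflinks and Cuffnorm on GRCm38.p5. The deposited values are FPKM per locus and mouse, normalized by the authors. No read totals are given, so precision rests on the spread between mice. Loci listed at 0 throughout 1 group although every mouse of another group had a value, averaging 1 FPKM or more, were treated as failed estimates and left out (14 loci). Log2(FPKM + 1) was fitted with limma 3.58.1 (R 4.3.3, trend) for loci averaging 1 FPKM or more, with the 17 mice in 4 groups. Fold changes are on that scale, which understates low genes. Relative depth is the most frequent ratio of FPKM between libraries over loci below 0.1 FPKM in all 9. Positions are from GENCODE vM21 or the files (GRCm38), promoters from RefSeq (GRCm38.p6). Adjustment was by Benjamini-Hochberg, and Ncoa5 and Cdkn1a had two-sided exact permutation tests. Alternatives changed the pseudocount, filter, scaling, weights and mice used. The fit was tested on simulated data. Members and lists were chosen with earlier results of these data known. Genes named are Ncoa5 and Cdkn1a, every locus that passed, others among the 20 next by p, and up to 4 members a list, plus Trp53. Also named are members chosen after their values were seen (Axin2, Btg2, Casp8, Ddb2, Fas, Gadd45a, Gstk1, Hmox1, Lgr5, Sp5, Txnrd1, Xpc). Some loci left out as failed estimates are named too (Ahsg, Apoa1, Apoa2, C3, Dsg2, Ttr), and an unnamed one on chromosome 8 is described.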

Additional observations from a re-analysis of the deposited data

Results flagged for a closer look

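In 156 groups of 4 or 5 mice checked with Dixon's test at the 95% level, with gene and list values on a log scale, 12 held a mouse far from the rest. Chance alone gives about 1 in 20. A lead that is wide in FPKM can fall short on that scale. Cdkn1a and the summed T, NK and B cell markers were not among the 12, though Ncoa5+/- replicate 1 led both (117 and 978 FPKM). Ncoa5+/- replicate 1 stood apart above the other 4 for Eda2r (6.24 FPKM), Gm13657 (3.66 FPKM) and Mdm2 (22.1 FPKM), and replicate 5 below them for Htatip2 (44.5 FPKM). In wild type mice, replicate 4 was apart for Trp53 (11.7 FPKM, highest) and Glul (347 FPKM, lowest), and replicate 2 for Btg2 (166 FPKM, highest). Ncoa5+/- replicate 3 stood apart in its FPKM sum of 2089981 and in the 78.3% of it that the 50 highest loci took, and replicate 4 in having the fewest loci above 0 among the 5 (19416). For summed lists, among the 5 mice labelled Ncoa5+/- replicate 5 was high in ER chaperone genes (5153 FPKM) and replicate 2 low in sinusoidal endothelial markers (145 FPKM). No interaction of genotype with metformin passed for any of the 30 loci.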

How the results depend on the processing

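Of the 13 alternative settings tried beside leaving out mice, 12 gave between 21 and 38 loci that passed, and the fit of the 9 untreated mice alone gave 11, of which 10 were among the 30. Leaving out 1 mouse gave 18 to 27, with 18 without wild type replicate 2 and 18 without wild type replicate 4. Of the 30, 17 passed in every fit without 1 mouse. Among treated mice 15 of the 30 passed, with 20 at a pseudocount of 0.1 and 9 at 5. The exact permutation p ran from 0.214 to 0.714 for Ncoa5 and from 0.0286 to 0.0357 for Cdkn1a when 1 mouse was left out. Of 120 genes and loci recomputed, 4 changed direction and none of the 4 passed in any setting: without 1 mouse, log2 fold changes ran from -0.954 to 0.937 for Btg2 and from -0.863 to 0.308 for Gadd45a, both positive only without wild type replicate 2, from -0.350 to 0.0507 for Hmox1, positive only without wild type replicate 3, and from -0.0413 to 0.0562 for Xpc, which had -0.0103 without the 2 libraries whose 50 highest loci took over 70% of the FPKM sum. The median of 23 of the 49 lists changed sign in at least 1 setting. Members of the p53 list that passed numbered 2 to 9. The cause of the lower counts was not tested, beyond the fewer mice in those fits. Keeping failed estimates at 0 gave 8 lower loci, beside 1 in the main fit. The loci left out included Ahsg, Apoa1, Apoa2, C3, Dsg2 and Ttr. Each of these was at 0 in all 5 untreated mice labelled Ncoa5+/- and expressed in all 4 wild type mice. Protein-coding genes alone, an alternative chosen after seeing the data, gave 21. No paired analysis was possible because the labels give each mouse its own number and the replicate numbers used here only follow the order of the samples. Read totals are not used here, so low loci such as Eda2r and Atp8b5 have an unknown counting error.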
